A study of Homo sapiens with 12 samples.

Results

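CDKN1A and 9 other established targets of the transcription factor p53 were followed through RNA sequencing of Caco-2 spheroids exposed to methotrexate, lactoferrin, both or neither. The 10 genes are CDKN1A, MDM2, PHLDA3, ZMAT3, SESN1, TP53INP1, FAS, BBC3, BAX and GDF15. They are known p53 targets, named with earlier results of these data in view, all 10 were found among the 48162 genes of the count table, and all 10 passed the filter on low counts that left 16733 genes for testing. Caco-2 is an established cell line from a human colorectal carcinoma, and its cells acquire enterocyte features as they grow.

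All groups shared the same culture: cells at passage 26 in Matrigel, kept 5 days in medium containing 20% fetal serum, then exposed for 4 h. The 4 groups of 3 libraries each received methotrexate (MTX), methotrexate with lactoferrin (MTX+LTF), lactoferrin (LTF) or carrier fluid (control). Methotrexate is an antifolate that blocks dihydrofolate reductase, and lactoferrin is a milk protein that binds iron. No dose is stated for either agent. Separate cultures behind the 3 libraries of a group are not stated either, so p-values here reflect only the spread among libraries, which may be technical.

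In cells with working p53, DNA damage or a shortage of nucleotides stabilises the protein, which then binds paired half-sites near its targets and raises their transcription. The targets cover a cell cycle brake (CDKN1A, encoding p21), feedback on p53 itself (MDM2) and cell death (FAS, BBC3, BAX). Many of them are also driven by other factors, and CDKN1A in particular responds to differentiation, growth factors and stress without p53. Caco-2 is known to lack functional p53, so the question put to the data was whether a rise of these genes was present in both groups that received methotrexate.

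Promoter sequence close to start sites of the 10 genes was searched for p53 half-sites. RefSeq windows on GRCh38.p14, of 300 bases each (250 before to 50 after a start site), were matched by symbol for 8 of the 10 genes and gave 16 windows. The half-site consensus, searched on both strands, was in 2 of these 16 windows, 1 of FAS and 1 of SESN1, against 6.63% of all 35116 windows. With at most 1 mismatch outside the core it was in 9 of the 16 windows, all 4 of MDM2, 2 of SESN1 and 1 each of FAS, GDF15 and BBC3, and in 32.6% of all windows. The GC box GGGCGG, searched on both strands, was in 14 of the 16 windows and in 45% of all windows. The TATA box letters TATAA, searched on the forward strand, were in 1 of the 16, of GDF15, and in 14.8% of all. The half-sites of FAS and SESN1 began 122 and 49 bases before the start site of the window that held them. Windows at other start sites of these 2 genes held no match to the consensus. The CDKN1A window held 4 GC boxes and no half-site, and 2 of the 4 overlap by 1 base. Sequence more than 250 bases before a start site was not searched, so a half-site farther away would be missed in any gene. The 3 windows are shown because CDKN1A and FAS rose over 50-fold in MTX, described below, while SESN1, with the same motif as FAS, rose under 2-fold. Capitals mark the GC boxes in CDKN1A (chr6:36678464-36678763, plus strand) and the half-site in FAS (chr10:88991181-88991480, plus strand) and in SESN1 (chr6:109008939-109009238, minus strand). Windows of a gene can overlap, as windows of MDM2 and of FAS do, so the same site can be counted in more than 1 window. A match is a description of letters and not a bound site.
CDKN1A: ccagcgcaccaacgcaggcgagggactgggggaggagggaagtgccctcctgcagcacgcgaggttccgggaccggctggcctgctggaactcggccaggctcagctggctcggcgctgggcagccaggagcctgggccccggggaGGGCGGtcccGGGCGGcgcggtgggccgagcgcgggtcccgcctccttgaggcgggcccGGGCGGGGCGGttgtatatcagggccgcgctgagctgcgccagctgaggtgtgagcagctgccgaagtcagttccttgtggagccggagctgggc
FAS: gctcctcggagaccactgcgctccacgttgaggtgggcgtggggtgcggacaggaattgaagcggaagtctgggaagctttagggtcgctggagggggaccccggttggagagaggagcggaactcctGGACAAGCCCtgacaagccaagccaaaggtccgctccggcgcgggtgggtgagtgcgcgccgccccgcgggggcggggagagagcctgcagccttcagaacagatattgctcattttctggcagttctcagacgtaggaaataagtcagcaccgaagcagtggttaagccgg
SESN1: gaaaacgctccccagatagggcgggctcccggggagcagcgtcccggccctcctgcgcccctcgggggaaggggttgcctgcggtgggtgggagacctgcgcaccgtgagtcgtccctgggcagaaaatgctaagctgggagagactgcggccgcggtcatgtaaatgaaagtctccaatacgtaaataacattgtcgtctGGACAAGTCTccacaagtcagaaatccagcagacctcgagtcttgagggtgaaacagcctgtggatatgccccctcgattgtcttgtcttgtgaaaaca

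The MTX libraries stood apart from the other 9 and went against the label of a pure epithelial line. They held 47459811 to 60591667 counts, against 18714054 to 23859094 in the other 9 libraries, and mitochondrially encoded genes took 6.67 to 7.54% of their counts, against 2.00 to 3.34%. The adipocyte markers, 14 of 14 measured, summed to 20038 to 20843 CPM (counts scaled to library size, after TMM scaling) in MTX, against 51.1 to 58.6 in MTX+LTF, 56.3 to 60.2 in LTF and 56.9 to 60.5 in control. ADIPOQ, which encodes adiponectin and defines fat cells, was at 1496 to 1592 CPM in the MTX libraries, and at 0 counts in 2 of the 3 libraries of each other group. The 10 fibroblast markers summed to 9259 to 10620 CPM in MTX, 937 to 1087 in MTX+LTF, 924 to 1027 in LTF and 932 to 1042 in control. Outside MTX most of this sum was FBLN1, which encodes the matrix protein fibulin 1 and averaged 472 ± 43.7 CPM in MTX, 884 ± 74 in MTX+LTF, 874 ± 48.1 in LTF and 877 ± 47.9 in control. COL3A1, a fibrillar collagen of connective tissue, was at 3781 ± 181 CPM in MTX, 1.21 ± 0.377 in MTX+LTF, 1.15 ± 0.149 in LTF and 1.48 ± 0.16 in control (SD, n = 3 each). The 12 intestinal epithelial markers, such as the brush border protein villin (VIL1), summed to 3292 to 3655 CPM in MTX, 6654 to 6993 in MTX+LTF, 6688 to 7125 in LTF and 7005 to 7444 in control, so the epithelial label held in all groups while its share of the MTX libraries was lower. Endothelial markers summed to 12.4 to 14.8 CPM in MTX, 4.66 to 5.48 in MTX+LTF, 3.6 to 4.18 in LTF and 2.97 to 3.74 in control, and blood cell markers to 44.1 to 52.0, 46.4 to 50.1, 45.2 to 48.6 and 45.4 to 49.2 in the same groups. With TMM, MTX against control had 14 of 14 adipocyte, 9 of 10 fibroblast and 5 of 6 tested endothelial markers higher, FBLN1 lower (-0.90), 2 of 4 blood cell markers higher and 2 lower, and 11 of 11 epithelial markers lower. Over all genes tested, 35.4% were higher and 29.1% lower. FABP4, LPL, GPD1, PLIN4 and PLIN1, all genes of fat storage, averaged 4926, 3093, 2917, 2844 and 831 CPM in MTX, and outside MTX only GPD1 averaged over 1 CPM. The pan-leukocyte gene PTPRC averaged 0.418 ± 0.192 CPM in MTX, 0.48 ± 0.121 in MTX+LTF, 0.13 ± 0.0989 in LTF and 0.135 ± 0.0908 in control. LYZ and CSF1R, expressed by myeloid cells, were the 2 lower of the 4 blood cell markers, averaging 7.48 and 9.72 CPM in MTX and 17.3 and 16.4 CPM in control. The endothelial genes TEK and EMCN were at 0 counts in all LTF and control libraries. These marker levels move with every MTX comparison below. Their part in the results was not tested, the treatment and the composition of the 3 MTX libraries cannot be told apart, and in bulk RNA fewer cells of a type and less RNA per cell cannot be told apart either. For this reason the MTX comparisons are also given under epithelial scaling. It sets libraries equal on the median ratio to control of 40 brush border and tight junction genes. Each library is rescaled by 1 factor, which cannot remove RNA of other cell types, if there is any. Of the 40 genes, 12 were still called higher and 1 lower in MTX against control. Epithelial scaling moved the median log2 fold change of all genes in MTX against control to 0.93, against 0.03 with TMM.

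**Figure D1:**
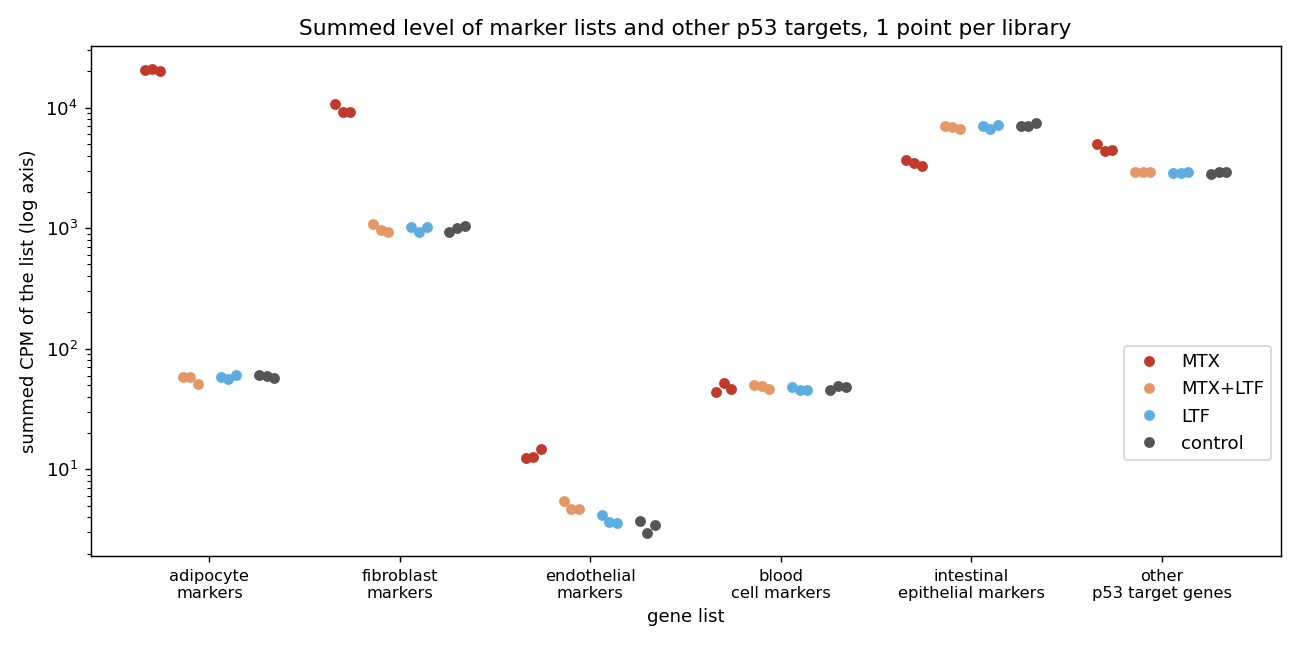
Summed level of each marker list and of the other p53 target genes in every library (CPM after TMM scaling, log axis, 1 point per library). Adipocyte and fibroblast marker sums are highest and epithelial marker sums lowest in the 3 MTX libraries, while the MTX+LTF, LTF and control libraries lie close together.

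MTX against control asks what methotrexate alone did. Of the 10 genes, 8 were higher in MTX, 1 was lower and 1 was not called by edgeR's quasi-likelihood test (Benjamini-Hochberg adjusted p under 0.05 over all 16733 genes). The background was wide, since 35.4% of all genes tested were called higher and 29.1% lower. Increases of over 50-fold were measured for CDKN1A, PHLDA3 and FAS, and increases of under 2-fold for BBC3, SESN1 and MDM2. The median log2 fold change of the 10 genes was 1.55, against 0.03 for all genes. The libraries of the 2 groups did not overlap for any of the 10, with 8 higher and 2 lower in MTX, where 38.6% and 32.9% of all genes did the same.

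**Figure D2:**
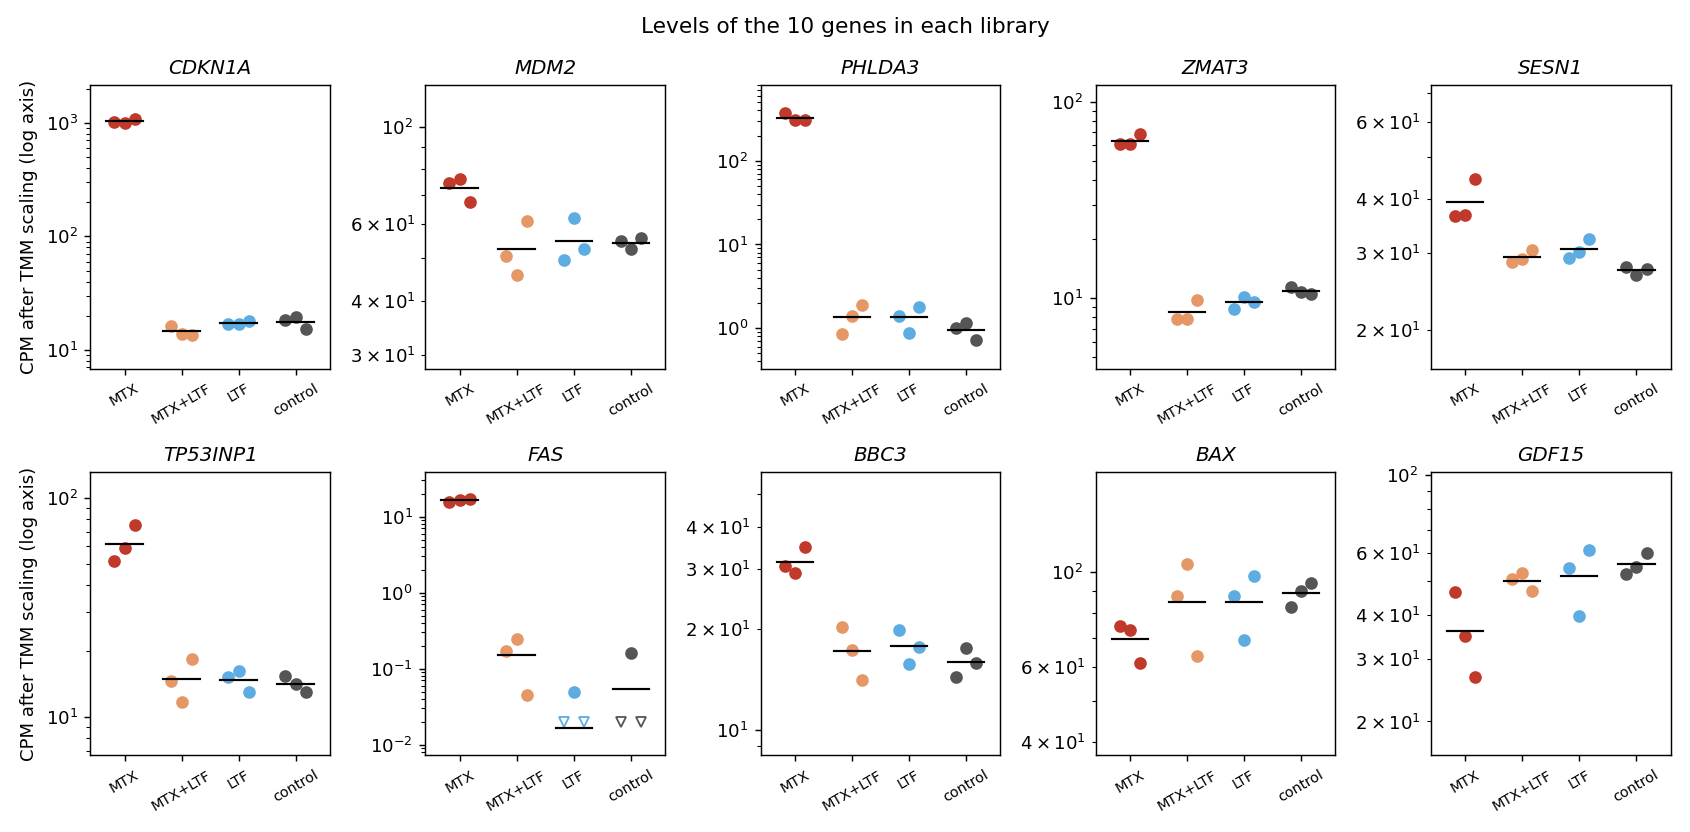
Level of each of the 10 genes in every library (CPM after TMM scaling, log axis, 1 point per library, line at the group mean, open triangles for libraries at 0). CDKN1A, PHLDA3, FAS, ZMAT3 and TP53INP1 are well above the other 9 libraries in MTX, while BAX and GDF15 are below control, and the MTX+LTF points lie near those of LTF and control.

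CDKN1A (ENSG00000124762, hg19 chromosome 6, 36644305 to 36655116, plus strand) encodes p21, which binds and inhibits cyclin-dependent kinases. Its level was 1011, 1002 and 1085 CPM in MTX, 16.3, 13.9 and 13.6 CPM in MTX+LTF, 16.8, 16.8 and 17.9 CPM in LTF, and 18.3, 19.3 and 15.2 CPM in control. The lowest MTX library was 51.9-fold above the highest of the other 9, and the 3 libraries with both agents were among or below the 6 without methotrexate. The log2 fold change of MTX against control was 5.88 ± 0.12 (SE, adjusted p = 1.48e-15 by edgeR), or 58.7-fold with a 95% interval of 49.0 to 70.3. Under epithelial scaling it was 6.78.

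Feedback and signalling targets came next. MDM2 (ENSG00000135679, hg19 chromosome 12, 69201956 to 69239214) encodes the ubiquitin ligase that degrades p53. It measured 74.4, 76.2 and 67.4 CPM in MTX, 50.8, 45.9 and 61 CPM in MTX+LTF, 49.6, 62 and 52.5 CPM in LTF, and 54.8, 52.5 and 55.7 CPM in control. The MTX libraries were all above the rest, but the lowest of them was only 1.09-fold above the highest of the other 9. MDM2 rose by 0.42 ± 0.12 on the log2 scale (adjusted p = 0.00481), and under epithelial scaling by 1.32, where the median of all genes was 0.93.

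PHLDA3 (ENSG00000174307, hg19 chromosome 1, 201434620 to 201438365) encodes a pleckstrin homology protein that competes with the kinase AKT for membrane lipids. Its level was 368, 303 and 309 CPM in MTX, 0.850, 1.41 and 1.87 CPM in MTX+LTF, 1.40, 0.884 and 1.78 CPM in LTF, and 1.01, 1.17 and 0.719 CPM in control. It was nearly silent in all 9 libraries outside MTX, on 17 to 41 counts each. The log2 fold change of MTX against control was 8.40 ± 0.23 (adjusted p = 3.24e-14), the highest of the 10, and 9.29 under epithelial scaling.

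ZMAT3 (ENSG00000172667, hg19 chromosome 3, 178735011 to 178790067) encodes a zinc finger protein that binds RNA. It was at 60.7, 60.8 and 68.4 CPM in MTX, 7.82, 7.81 and 9.81 CPM in MTX+LTF, 8.80, 10.2 and 9.59 CPM in LTF, and 11.4, 10.8 and 10.6 CPM in control. The MTX libraries lay far above all others, while the 3 MTX+LTF and the 3 LTF libraries were all below control. MTX exceeded control by 2.54 ± 0.12 (log2, adjusted p = 2.05e-11), and by 3.44 under epithelial scaling.

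The stress and metabolism targets SESN1 and TP53INP1 differed in size. SESN1 (ENSG00000080546, hg19 chromosome 6, 109307640 to 109416022) encodes sestrin 1, which restrains mTORC1 signalling. It measured 36.5, 36.8 and 44.5 CPM in MTX, 28.6, 29.1 and 30.5 CPM in MTX+LTF, 29.2, 30.2 and 32.3 CPM in LTF, and 27.9, 26.7 and 27.5 CPM in control. Every group that received an agent was above control in all libraries, and MTX was highest. The log2 fold change of MTX against control was 0.52 ± 0.10 (adjusted p = 0.000355), and 1.42 under epithelial scaling. TP53INP1 (ENSG00000164938, hg19 chromosome 8, 95938200 to 95961639) encodes a protein that links p53 to autophagy and cell death. Its level was 51.4, 59.0 and 74.7 CPM in MTX, 14.5, 11.7 and 18.4 CPM in MTX+LTF, 15.2, 16.3 and 13.04 CPM in LTF, and 15.4, 14.2 and 12.98 CPM in control. Outside MTX the 3 groups overlapped. MTX exceeded control by 2.12 ± 0.17 (log2, adjusted p = 1.64e-08), and by 3.03 under epithelial scaling.

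The cell death targets did not move as one. FAS (ENSG00000026103, hg19 chromosome 10, 90750414 to 90775542) encodes a death receptor. It had 637, 863 and 869 counts in MTX, 4, 5 and 1 counts in MTX+LTF, 0, 1 and 0 counts in LTF, and 0, 4 and 0 counts in control. A library at 0 counts may hold up to 0.129 to 0.160 CPM (3 counts of the library's total, counting error only), so FAS was barely detectable outside MTX, where it was at 16.6 ± 0.787 CPM. The log2 fold change of MTX against control was 8.06 ± 0.43 (adjusted p = 1e-10), and 8.94 under epithelial scaling. The size rests on the 4 counts of 1 control library, since without control replicate 2 the fitted value is 11.88 against 2 libraries at 0, which depends on the prior count and is no bound. Read counts gave a ratio of 288 (95% counting interval 112 to 1059).

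BBC3 (ENSG00000105327, hg19 chromosome 19, 47724081 to 47736023) encodes PUMA, a protein that triggers mitochondrial cell death by blocking BCL2 relatives. It measured 30.6, 29.3 and 34.9 CPM in MTX, 20.2, 17.3 and 14.1 CPM in MTX+LTF, 19.9, 15.8 and 17.7 CPM in LTF, and 14.4, 17.6 and 15.9 CPM in control. All MTX libraries were above the other 9, which overlapped each other. The log2 fold change of MTX against control was 0.99 ± 0.14 (adjusted p = 1.46e-05), and 1.89 under epithelial scaling.

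BAX (ENSG00000087088, hg19 chromosome 19, 49458072 to 49465055) encodes the pore former of the mitochondrial outer membrane. It was at 74.5, 73.2 and 61.2 CPM in MTX, 87.6, 104 and 63.5 CPM in MTX+LTF, 87.6, 69.4 and 97.7 CPM in LTF, and 82.9, 90.1 and 94.2 CPM in control. The MTX libraries were below control but overlapped both other groups. The log2 fold change of MTX against control was -0.36 ± 0.16 (adjusted p = 0.0589), which is not called. It passed the threshold with no filter (-0.33), with only the groups compared (-0.35), and, at -0.36, without replicate 2 or 3 of MTX+LTF or replicate 2 of LTF. Under epithelial scaling BAX was higher in MTX, by 0.54 (adjusted p = 0.0074).

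GDF15 (ENSG00000130513, hg19 chromosome 19, 18485541 to 18499987) encodes a secreted stress cytokine of the TGF-beta superfamily. It measured 46.7, 35.0 and 26.7 CPM in MTX, 50.6, 52.7 and 46.8 CPM in MTX+LTF, 54.6, 39.7 and 61.2 CPM in LTF, and 52.4, 54.9 and 60.2 CPM in control. The MTX libraries were all below control and below MTX+LTF, with a wide spread. GDF15 was lower in MTX than in control (log2 fold change -0.63 ± 0.18, adjusted p = 0.00521), and 0.27 higher and not called under epithelial scaling (adjusted p = 0.173).

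The direction therefore depended on scaling for BAX and GDF15 and on no scaling tried for the other 8. Under epithelial scaling 9 of the 10 genes were higher in MTX and 0 lower, where 74.4% of all genes were called higher, and the log2 fold changes ran from 0.27 to 9.29. MDM2 was at 1.32 and SESN1 at 1.42 on that scale, close to the 0.93 of the median gene, while CDKN1A, PHLDA3, FAS, ZMAT3 and TP53INP1 were at 3.03 or more. With the submitters' threshold, over 2-fold at an adjusted p under 0.01, the same 5 genes were called higher with TMM, where 21.6% of all genes were. DESeq2 called 8 of the 10 higher and 1 lower, where it called 36.2% of all genes higher. FAS, MDM2 and TP53INP1 each overlap another gene on the opposite strand, ACTA2, CPM and NDUFAF6 in that order, which reached 1795, 2238 and 581 counts in a library. Whether counting used strand is not stated, so part of the values of these 3 genes is uncertain.

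**Figure D3:**
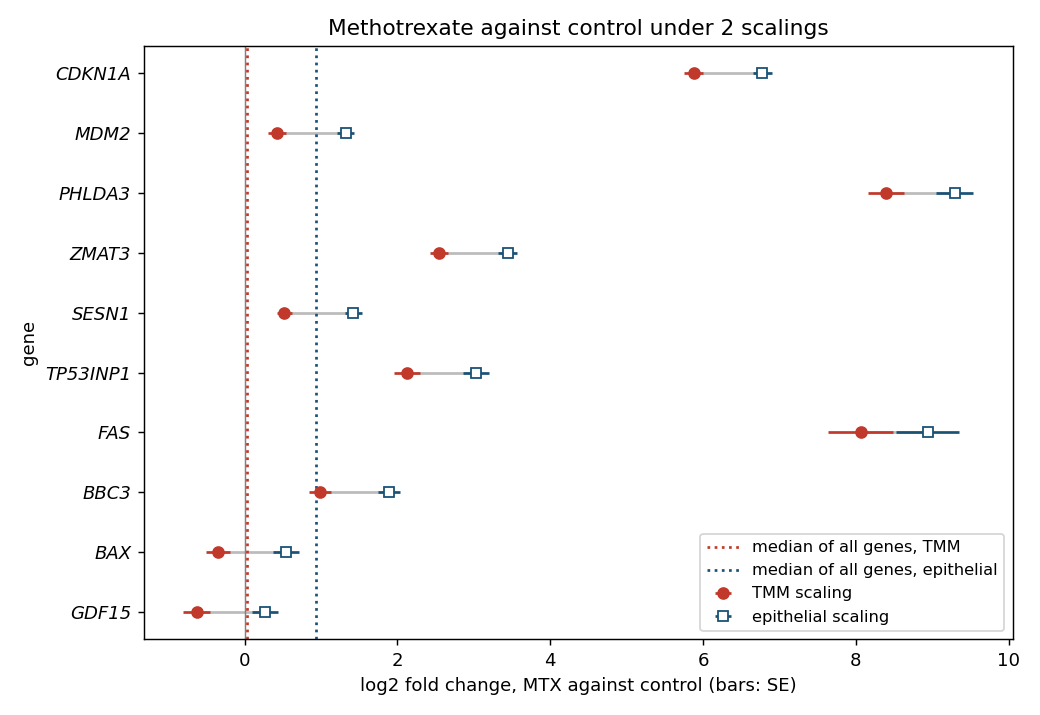
Log2 fold change of MTX against control for each gene with TMM and with epithelial scaling (points, bars show the SE, dotted lines show the median of all genes tested, 0.03 and 0.93). BAX and GDF15 lie on different sides of 0 under the 2 scalings, and CDKN1A, PHLDA3 and FAS stand above 5 under both.

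MTX+LTF against LTF asks what methotrexate did when lactoferrin was present, and shares no library with MTX against control. None of the 10 genes was called by edgeR, and 0.0179% of all genes were. At an unadjusted p under 0.05 there were 2 of the 10, where 3.37% of all genes passed. DESeq2 and limma-voom also called 0 of the 10, with 1 each at an unadjusted p under 0.05, and the fit without the MTX libraries called 0. CDKN1A averaged 14.6 ± 1.46 CPM in MTX+LTF and 17.2 ± 0.630 CPM in LTF (SD, n = 3 each), a log2 fold change of -0.23 ± 0.11 (edgeR, unadjusted p = 0.0477, adjusted p = 1), and its 3 MTX+LTF libraries were all below the 3 of LTF, as for no other of the 10. Such complete separation was seen in 3.67% of all genes for higher and in 3.22% for lower. FAS had 10 counts in MTX+LTF and 1 in LTF, a ratio of 9.21 with a 95% counting interval of 1.31 to 400 (edgeR, unadjusted p = 0.0267, adjusted p = 1). Apart from FAS, the log2 fold changes lay between -0.23 and 0.02, and the 95% interval stayed within 1.5-fold either way for 8 of the 9 genes. The exception was PHLDA3, whose interval reached 1.56-fold. CDKN1A's interval ran from -0.46 to -0.0027 on the log2 scale, against 5.61 to 6.14 for MTX over control. Apart from FAS, a rise of the size measured in MTX was thus not detected in MTX+LTF for any gene that had risen in MTX with TMM. For FAS, on 10 against 1 counts, this comparison does not settle the size, and its ratio to control is given below. BAX and GDF15 had not risen in MTX with TMM.

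**Figure D4:**
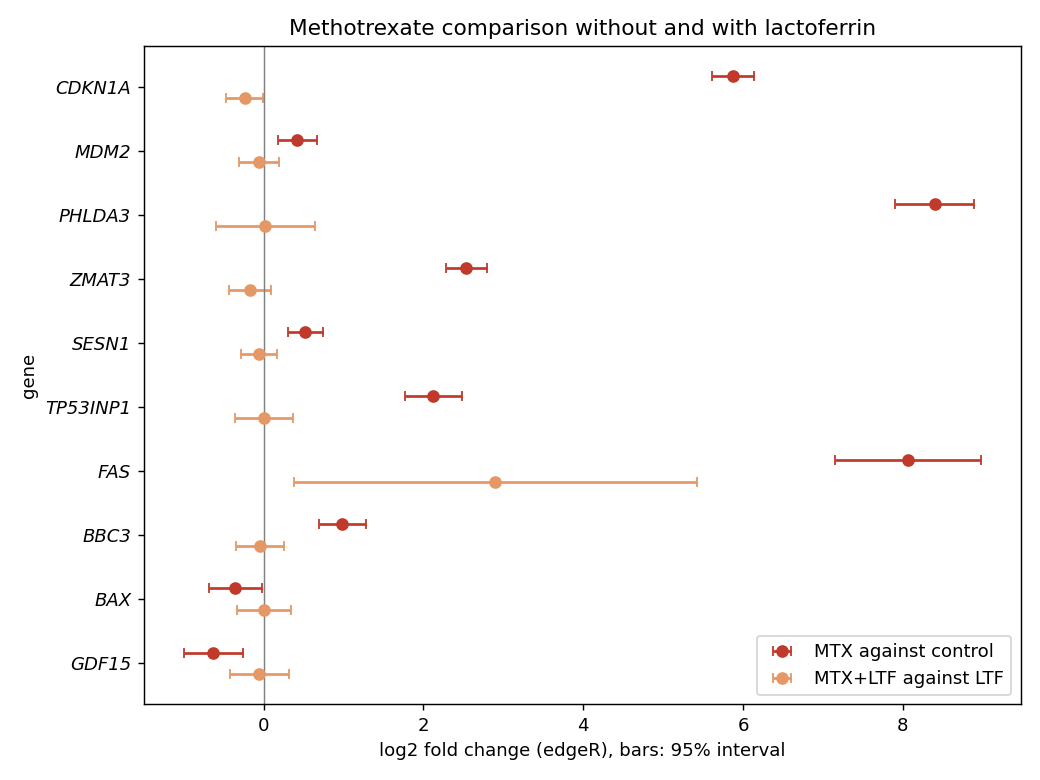
Log2 fold change of MTX against control and of MTX+LTF against LTF for each gene (edgeR, bars show the 95% interval). The MTX+LTF intervals reach or lie close to 0 for 9 genes, and that of FAS, on 10 against 1 counts, spans 0.38 to 5.42.

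MTX+LTF against control and LTF against control gave the same absence of calls, and both use the control libraries that MTX was set against. In MTX+LTF against control, 0 of the 10 genes were called by edgeR, DESeq2 or limma-voom, where edgeR called 0.0299% of all genes. At an unadjusted p under 0.05 edgeR had 2 of the 10, CDKN1A (-0.27 ± 0.11, unadjusted p = 0.0251, adjusted p = 1) and ZMAT3 (-0.36 ± 0.12, unadjusted p = 0.00977, adjusted p = 1), where 3.53% of all genes passed. DESeq2 and limma-voom each had 2. FAS had 10 counts in MTX+LTF and 4 in control, a ratio of 2.63 with a 95% counting interval of 0.758 to 11.5. That interval lies below the 112 to 1059 of MTX over control, and both ratios rest on the same 4 control counts. SESN1 was the 1 gene with all MTX+LTF libraries above control and ZMAT3 the 1 with all below, where 4.19% and 3.65% of all genes did so. In LTF against control, edgeR, DESeq2 and limma-voom called 0 of the 10, and 0 were at an unadjusted p under 0.05, where edgeR called 0% of all genes and 3.75% passed unadjusted. SESN1 again had all LTF libraries above control and ZMAT3 all below, where 5.18% and 4.91% of all genes did so. The log2 fold changes in LTF were 0.16 ± 0.10 for SESN1 and -0.19 ± 0.12 for ZMAT3. Within the 9 libraries outside MTX, SESN1 varied least of the 10 (26.7 to 32.3 CPM, coefficient of variation 5.88%), and PHLDA3 had 33.4% and FAS 125% at their low counts.

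MTX+LTF against MTX, which asks what adding lactoferrin to methotrexate did, mirrored the first comparison and shares its MTX libraries. Of the 10 genes, 8 were lower in MTX+LTF, where 34.4% of all genes were called lower, and GDF15 was higher, where 28.8% were. CDKN1A fell by 6.14 on the log2 scale with an SE of 0.12 (edgeR, adjusted p = 1.38e-15). FAS was at -6.73 ± 0.38 (edgeR, adjusted p = 1.99e-10). GDF15 averaged 50.03 ± 2.99 CPM in MTX+LTF and 36.1 ± 10.01 CPM in MTX (SD, n = 3 each), a log2 fold change of 0.47 ± 0.18 (edgeR, adjusted p = 0.0281). That call was lost without MTX+LTF replicate 1 or 2 or MTX replicate 2 (0.46, 0.43 and 0.45) and without MTX replicate 3 (0.29), and the direction turned to -0.42 under epithelial scaling. BAX, at 0.29 ± 0.16 (adjusted p = 0.121), was not called, was past the threshold without MTX+LTF replicate 3 (0.46) and was at 0.12 without MTX+LTF replicate 2. Under epithelial scaling all 10 were lower in MTX+LTF, where 74.2% of all genes were, and CDKN1A was at -7.04.

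The interaction tests directly whether the methotrexate difference was the same with and without lactoferrin. It was called for 7 of the 10 genes, each with the smaller methotrexate difference in the presence of lactoferrin, where 26.1% of all genes were called in that direction and 46.7% in either. Under epithelial scaling 7 were called as well, where 64.8% of all genes were called lower, so that the count itself is then near the background. The 7 are CDKN1A (-6.11 ± 0.16), PHLDA3 (-8.38 ± 0.41), ZMAT3 (-2.70 ± 0.17), TP53INP1 (-2.11 ± 0.24), BBC3 (-1.03 ± 0.20), SESN1 (-0.58 ± 0.15) and MDM2 (-0.48 ± 0.16), as log2 differences. Under epithelial scaling they were at -7.02, -9.29, -3.62, -3.03, -1.95, -1.49 and -1.39 in the same order. MDM2 (adjusted p = 0.0261) lost its call when any of 6 libraries was left out (control 2, MTX+LTF 1 or 2, LTF 2, MTX 1 or 2), at -0.37 to -0.46. FAS was at -5.16 ± 2.70 and not called by edgeR (adjusted p = 0.13, and 0.000174 to 0.919 over the alternatives). DESeq2, limma-voom and the fit without control replicate 2 called FAS, at -5.09, -6.43 and -8.98, and without LTF replicate 2 it was at -2.89. BAX (0.36, adjusted p = 0.205) and GDF15 (0.58, adjusted p = 0.0682) were not called, though BAX was without MTX+LTF replicate 3 (0.53) and GDF15 was by limma-voom (0.64), with no filter (0.55), and without LTF replicate 3 (0.72) or MTX replicate 1 (0.80). Both changed sign under epithelial scaling, to -0.54 and -0.33, and were not called there, like FAS (-6.11).

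Levels can be compared between genes only per length, as RPKM computed from TMM-scaled counts and the gene lengths in the table. In control the order was led by BAX at 65.6 ± 4.21 and GDF15 at 32.4 ± 2.31 RPKM, with BBC3 (8.68 ± 0.854), SESN1 (7.80 ± 0.170), CDKN1A (7.78 ± 0.938) and MDM2 (7.36 ± 0.228) within their spread of the next in line. TP53INP1 (2.51 ± 0.214), ZMAT3 (1.16 ± 0.0439), PHLDA3 (0.629 ± 0.148) and FAS (0.0209 ± 0.0362) followed. LTF kept this order, and in MTX+LTF CDKN1A and MDM2 exchanged places within their spread. In MTX the order was led by CDKN1A (457 ± 20.1 RPKM) and PHLDA3 (213 ± 23.5 RPKM), ahead of BAX (51.3 ± 5.38 RPKM). GDF15 (21.01 ± 5.82) and BBC3 (17.2 ± 1.59) then lay within their spread, as did SESN1 (11.2 ± 1.29), TP53INP1 (10.9 ± 2.11) and MDM2 (9.85 ± 0.624), and ZMAT3 (6.73 ± 0.472) and FAS (6.46 ± 0.307).

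A ratio to BAX within a library does not depend on library scaling. Per 100 counts of BAX, CDKN1A had 1357 to 1772 counts in MTX, 13.4 to 21.4 in MTX+LTF, 18.3 to 24.2 in LTF and 16.2 to 22 in control. BBC3 had 40.03 to 57 in MTX, 16.6 to 23.0 in MTX+LTF, 18.1 to 22.7 in LTF and 16.8 to 19.5 in control. GDF15 had 43.7 to 62.6 in MTX, 50.6 to 73.7 in MTX+LTF, 57.2 to 62.7 in LTF and 61 to 63.9 in control. The MTX libraries were above all others for CDKN1A and BBC3 and overlapped MTX+LTF, LTF and control for GDF15.

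Genes of the p53 family and its control were measured in the same libraries. TP73, which encodes a factor related to p53, averaged 11.6 ± 3.81 CPM in MTX, 23.7 ± 3.98 in MTX+LTF, 27.0 ± 2.08 in LTF and 24.6 ± 2.40 in control (SD, n = 3 each), and fell by 1.09 on the log2 scale in MTX (-0.19 and not called under epithelial scaling). TP63 was at or under 0.393 CPM in all 12 libraries and was not tested. MDM4, which encodes a partner of MDM2, averaged 18.3 ± 3.12 CPM in MTX and 13.2 ± 1.71 CPM in control (0.47 ± 0.18, adjusted p = 0.0307). Of the 15 tested genes of the family and its control, 3 were higher and 7 lower in MTX than in control with TMM, against 11 higher and 0 lower under epithelial scaling. Over all genes 35.4% were higher and 29.1% lower with TMM, and 74.4% and 0.735% under epithelial scaling, so the count of the family under epithelial scaling is at the background. The kinase HIPK2 (-0.32), the acetyltransferase EP300 (-0.76) and the deubiquitinase USP7 (-0.52) were lower with TMM and were at 0.57, 0.14 and 0.38 under epithelial scaling, while the checkpoint kinase CHEK1 was at -1.11 and -0.21.

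Other p53 targets behaved as a mixed group. Of 69 tested, 41 were higher and 15 lower in MTX than in control. Their log2 fold changes ran from -0.98 to 10.42, with a median of 0.48. Under epithelial scaling 59 were higher and 0 lower, with a median of 1.38. The genes named in this paragraph were chosen by level, so they do not show the extremes of that range. Over all genes 35.4% were higher and 29.1% lower with TMM, and 74.4% were higher under epithelial scaling. CCNG1, which encodes cyclin G1, averaged 242 ± 22.3 CPM in MTX and 143 ± 13.7 CPM in control (0.76 ± 0.12). PLXNB2, a semaphorin receptor, was lower with TMM (-0.32) and higher under epithelial scaling (0.58), and the phosphatase PTP4A1 was at -0.27 (adjusted p = 0.0773, not called) and 0.63. In MTX+LTF against LTF, MTX+LTF against control and LTF against control, edgeR called 0 of the 69, with 2, 4 and 2 at an unadjusted p under 0.05. Over all genes 0.0179%, 0.0299% and 0% were called in the same order, and 3.37%, 3.53% and 3.75% passed unadjusted. This list and those below hold genes with textbook roles and were chosen with earlier results of these data known.

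**Figure D5:**
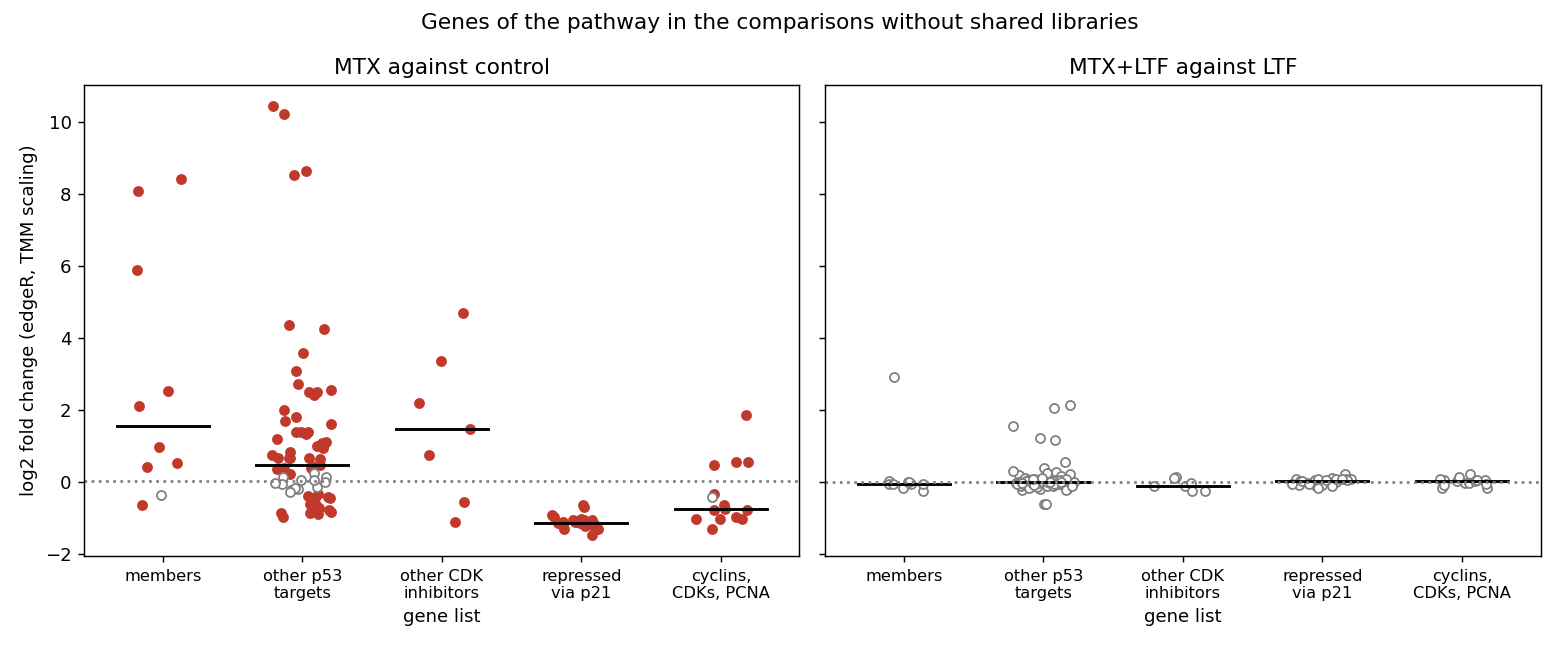
Log2 fold change of every tested gene in 5 lists, for MTX against control and for MTX+LTF against LTF (edgeR with TMM; filled points are called, open points are not, black lines are list medians and the dotted line is the median of all genes). The points spread widely on the left, while no point is called on the right, where the farthest is FAS at 2.90.

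Partners of CDKN1A in the cell cycle differed too. Of the 7 other inhibitors of cyclin-dependent kinases, 5 were higher and 2 lower in MTX than in control, where 35.4% and 29.1% of all genes were, and 6 were higher under epithelial scaling, where 74.4% were. CDKN2C (p18) averaged 130 ± 4.97 CPM in MTX and 5.00 ± 1.70 CPM in control (4.69 ± 0.22), CDKN2B (p15) 71.3 ± 6.04 and 6.88 ± 0.367 CPM (3.37 ± 0.14), and CDKN1C (p57) 35.7 ± 0.926 and 7.83 ± 0.938 CPM (2.19 ± 0.15). CDKN2D (p19) and CDKN2A were also higher (1.47 and 0.75). CDKN1B (p27) was lower (-0.54) and turned to 0.36 under epithelial scaling, and CDKN3 was at -1.09 and -0.19. Of the 15 cyclins, kinases and PCNA, 4 were higher and 10 lower in MTX, against 5 higher and 1 lower under epithelial scaling, with the same shares over all genes. PCNA, the sliding clamp of replication, was at -0.96 with TMM and -0.06 under epithelial scaling, CCNB1 at -1.03 and -0.13, CDK6 at -0.75 and 0.15, and CCND1 at 0.47 and 1.37.

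Genes that p21 is known to repress through the DREAM complex were lower in MTX in 22 of 22 cases with TMM, with a median log2 fold change of -1.13, where 29.1% of all genes were lower. Under epithelial scaling 6 of the 22 were lower and 1 higher, with a median of -0.23, where 0.735% of all genes were lower. The replication enzyme TOP2A averaged 150 ± 4.68 CPM in MTX and 334 ± 32.4 CPM in control (-1.16 ± 0.11 with TMM, -0.26 under epithelial scaling), and the proliferation marker MKI67 127 ± 34.5 and 277 ± 34.5 CPM (-1.13 ± 0.19 and -0.23). MYBL2 was at -1.14 and -0.24 and the mitotic kinase AURKA at -1.30 and -0.41 under the 2 scalings. These falls are near those of the intestinal epithelial markers, which were lower in 11 of 11 cases with a median of -1.07 with TMM and were called in 0 of 11 under epithelial scaling, with a median of -0.17. Epithelial scaling sets libraries equal on the median ratio of brush border and tight junction genes, so epithelial markers near 0 under it are partly set by that choice. KRT8, CDH1, VIL1 and KRT19 were at -1.07, -0.996, -1.12 and -0.94 with TMM. In MTX+LTF against LTF, edgeR called 0 of the 22 DREAM genes and 0 were at an unadjusted p under 0.05, with a median of 0.04. Over all genes 0.0179% were called there and 3.37% passed unadjusted.

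Other regulators of CDKN1A transcription also differed in MTX. Of 28 tested, 16 were higher and 5 lower than in control, against 23 higher and 0 lower under epithelial scaling. Over all genes 35.4% were higher and 29.1% lower, and 74.4% higher under epithelial scaling, to which the 23 of 28 come near. STAT3, a cytokine-driven transcription factor, averaged 344 ± 21.2 CPM in MTX and 77.2 ± 1.52 CPM in control (2.16 ± 0.09), and FOXO3 182 ± 21 and 135 ± 9.13 CPM (0.43 ± 0.10). MYC, a repressor of CDKN1A, was at 96.2 ± 47.9 CPM in MTX and 169 ± 22.7 CPM in control (-0.81 ± 0.27, and 0.08 under epithelial scaling).

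Around the cell death targets, the BCL2 family had 6 higher and 3 lower of 12 tested in MTX against control, against 10 and 0 under epithelial scaling. Over all genes 35.4% were higher and 29.1% lower, and 74.4% higher under epithelial scaling, so these counts are not far from the background. MCL1, which protects cells from BBC3 and its relatives, was at 1.27 ± 0.13 and BOK at 3.71 ± 0.22. BCL2L1 was at -0.82 ± 0.15 with TMM and 0.07 under epithelial scaling, and BMF at -0.35 and 0.55. The death receptor pathway of FAS had 5 higher and 5 lower of 12 tested, against 9 and 0 under epithelial scaling, again near those shares. The receptors TNFRSF1A (1.18 ± 0.08) and TNFRSF10B (0.67 ± 0.09) were higher in MTX, while CASP8, the initiator caspase below FAS, was at -0.36 with TMM and 0.54 under epithelial scaling, and DAXX at -0.47 and 0.43.

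The genes whose pattern over the 12 libraries was most like that of CDKN1A were sought among 13000 genes, by the smallest Euclidean distance between centred log2 CPM values. The nearest 5 were SERPINF1, COL5A1, CIDEC, ACSL1 and LIPE, at distances of 0.534 to 0.785. SERPINF1 encodes a secreted serpin and COL5A1 a fibrillar collagen. CIDEC coats lipid droplets, ACSL1 activates fatty acids and LIPE is hormone-sensitive lipase, and CIDEC and LIPE stand on the adipocyte marker list. CIDEC averaged 1195 ± 54.5 CPM in MTX, 16.3 ± 1.31 in MTX+LTF, 16.1 ± 0.699 in LTF and 16.3 ± 1.77 in control, beside 1033 ± 45.5, 14.6 ± 1.46, 17.2 ± 0.630 and 17.6 ± 2.12 CPM for CDKN1A in the same groups (SD, n = 3 each). Of the other 9 targets the nearest to CDKN1A was FAS, at rank 491, followed by PHLDA3 at 548, ZMAT3 at 870 and TP53INP1 at 1193. BAX was at rank 8443 and GDF15 at 10309. Only these 9 targets are ranked here. EDA2R, from the list of other p53 targets, was nearer, at a distance of 1.02 against 3.11 for FAS. Its level was low, with an average of 6.07 CPM in MTX and 0 in control. The distance is dominated by the MTX libraries against the other 9, and a small one describes a like size of that contrast.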

How the data were processed

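RNA of 12 samples was sequenced as read pairs, per the labels. CASAVA, STAR, DESeq2 and hg19 are named in the submitters' processing notes. Not given in the sources used here: versions, annotation, the counting program, strandedness and whether 1 count is a read or a pair. The authors deposited whole-number counts per gene, with symbols and hg19 coordinates.

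In R 4.3.3 with edgeR 4.0.16, filterByExpr kept 16733 genes, libraries were scaled by TMM, all 12 samples entered 1 fit with a mean for each group, and the quasi-likelihood F test was run on 6 contrasts with Benjamini-Hochberg adjustment within each, called under 0.05. The biological coefficient of variation was 12.9%. RPKM was computed from TMM-scaled counts. The code was tested on simulated data. Alternatives were relative log expression factors, epithelial scaling, no filter, DESeq2 1.42.0, limma-voom (limma 3.58.1), the submitters' threshold, a replicate term, only the groups compared, a fit without the MTX libraries, thinned MTX libraries, and leaving out each library. Libraries of a group differed beyond sampling noise (chi-square per degree of freedom 7.43 to 40.2). Intervals and floors from counts cover counting error only.

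Named genes were drawn from the 10 targets, TP63, TP73, MDM4, all other tested inhibitors and the 4 most abundant of each other list. ADIPOQ, PLIN1 and the 5 genes most like CDKN1A were added, and EDA2R for its distance to CDKN1A. Members and lists were chosen with earlier results of these data known. Values of a few such genes are not reported here; fits and list counts include them.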

Additional observations from a re-analysis of the deposited data

Results flagged for a closer look

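These results were singled out because the methotrexate difference with lactoferrin present (MTX+LTF against LTF) departed from the difference without it (MTX against control) in edgeR's interaction test, adjusted p under 0.05. As log2 differences, with minus less, these were -6.11 for CDKN1A, -8.38 for PHLDA3, -2.70 for ZMAT3, -2.11 for TP53INP1, -1.03 for BBC3, -0.58 for SESN1 and -0.48 for MDM2.

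The same test called 46.7% of all 16733 genes in either direction. It called 45 of 69 other p53 targets, 7 of 15 genes of the p53 family and its control, 6 of 7 other CDK inhibitors, 13 of 15 cyclins, CDKs and PCNA, and 22 of 22 DREAM targets. It called 19 of 28 other regulators of CDKN1A, 5 of 12 genes of the BCL2 family and 7 of 12 of the death receptor pathway. Among tested cell type markers it called 11 of 14 adipocyte, 8 of 10 fibroblast, 3 of 4 blood cell and 11 of 11 intestinal epithelial markers. Of the 6 tested endothelial markers it called 0. The counts of the p53 family and the BCL2 family are near the share of all genes. All of these contrasts include the 3 MTX libraries, whose adipocyte and fibroblast marker levels stood apart.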

How the results depend on the processing

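Counts of the 10 genes called were the same or within 1.5 times under all alternatives but 1. The submitters' threshold called 5, against 9 in the main result, both for MTX against control and for MTX+LTF against MTX. Leaving out 1 library at a time gave 9 to 10 called for MTX against control, 8 to 10 for MTX+LTF against MTX, 6 to 8 for the interaction, and 0 for the 3 comparisons without MTX. Where the main value, the alternative or both were called, the direction turned only under epithelial scaling. This happened for BAX (0.54) and GDF15 (0.27) in MTX against control and for BAX (-0.60) and GDF15 (-0.42) in MTX+LTF against MTX. Of 1274 single-gene values under alternatives, 20 lost a call, 14 gained one and 1202 kept call and sign. Another 34 changed sign without a call, 32 of them in LTF or MTX+LTF against control or MTX+LTF against LTF (such as FAS in LTF against control, 2.25 without control replicate 2 against -1.57) and 2 in the interaction under epithelial scaling (BAX -0.54, GDF15 -0.33). The cause was not tested. With the replicate number as a block, 9, 9 and 7 of the 10 were called in MTX against control, MTX+LTF against MTX and the interaction, and 0 in the others, the same counts as without it. Same-numbered libraries deviated together at correlations of -0.216 to 0.118, so the shared number was not treated as pairing. FAS rests on 0 to 5 counts per library outside MTX, and depth limits its folds.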
